A study of Homo sapiens with 32 samples.

Results

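The first day of tamoxifen was examined in xenografts of ZR-75-1, an estrogen receptor-positive human breast cancer cell line grown under the skin of female nu/nu mice. The day 1 samples were the 8 arrays titled for day 1, a forward and a dye-swap hybridization of each of 4 tumors, out of 32 arrays of 16 tumors in the series. By the labels, tumors 1 and 2 share one animal number, marked L and R, and tumors 3 and 4 share another, so 2 of 12 mice are represented. All animals, controls included, carried a slow-release pellet of estradiol (E2), and those in the treated group were given tamoxifen as well (2.5 mg, with a release time of 60 days). The comparator on every array was 1 pool of RNA from E2-only xenografts collected over the first days of the study. The age of the animals is not given in the sources used here, and the E2 supply stayed in place in both groups. The host is immunodeficient and supplies the stroma and vessels, and cDNA from mouse cells that binds human spots cannot be told apart from tumor signal. Fewer cells of a type and less RNA per cell likewise cannot be told apart in such bulk RNA.

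Estradiol-bound estrogen receptor alpha binds DNA at estrogen response elements and recruits coactivators, and tamoxifen competes with estradiol for the same pocket and favours corepressor binding. In luminal breast cancer cells the receptor sustains both a secretory and differentiation program with trefoil factors and scaffold proteins such as PDZK1, and a proliferation program that acts through cyclins, E2F factors and their targets in DNA replication and mitosis. Another group of genes is held down by estradiol and rises when the receptor is blocked, the growth factor receptor ERBB2 among them. The comparison asks which of these had already moved at day 1.

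Values are log2 ratios of a treated tumor over the pool, the mean of both dye orientations, so that -1 is a halving of the pool's level. For 1 day 4 tumor only the forward array was used. The direction is likely rather than certain. Forward arrays were read as channel 2 over channel 1 and dye-swap arrays the other way round, which is the direction of the authors' value table and of the sets in Additional File 1, the study's list of changed genes. If the scanner channels follow the channel numbers of the labels instead, every sign turns. Of 9912 probes, the limma fit (adjusted p under 0.05) called 354 lower than the pool, a background of 3.57%, and 295 higher, a background of 2.98%, with 2141 at an unadjusted p under 0.05. All but 1 of the lower and all but 8 of the higher probes had 1 sign in the 4 tumors, beside 3164 of all 9912 probes. With a change of at least 1.5-fold and an unadjusted p of at most 0.05, 74 probes (0.747%) were lower and 83 (0.837%) higher. The pool is 1 sample and its own spread is not part of any of these tests. The tests use a spread estimated over the tumors of all 5 days, while the SDs given here are those of the 4 day 1 tumors. With only the day 1 tumors in the fit, 699 probes were lower and 743 higher.

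These counts depended on the number of tumors. Leaving out tumor 1, 2, 3 or 4 left 82, 89, 136 and 304 lower probes and 43, 52, 102 and 227 higher ones. With 1 mean per mouse, which leaves 2 values at day 1, 20 probes were lower and 6 higher. The dyes mattered as well. Across all probes (genes are not independent replicates) the mean r between a tumor's 2 orientations was 0.10 (4 pairs, range -0.06 to 0.28), beside the mean r of 0.44 between arrays of the same orientation from different tumors (12 pairs). Over the probes with a gene name the first of these values was 0.70. Forward arrays alone gave 992 lower and 880 higher probes, and dye-swap arrays alone 108 and 103. Of the 649 called probes, 621 had the same sign in the means of both orientations, and so had 4669 of all 9912 probes. The calls were made on the mean of both orientations, so a shared sign among them is partly built in. With a dye term in the limma fit, 5345 probes had a dye effect at an adjusted p under 0.05. The median signal over background of the 8 arrays lay between 3.65 and 6.59, and 15 probes were saturated on at least 1 of them, both TFF1 probes included.

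**Figure D1:**
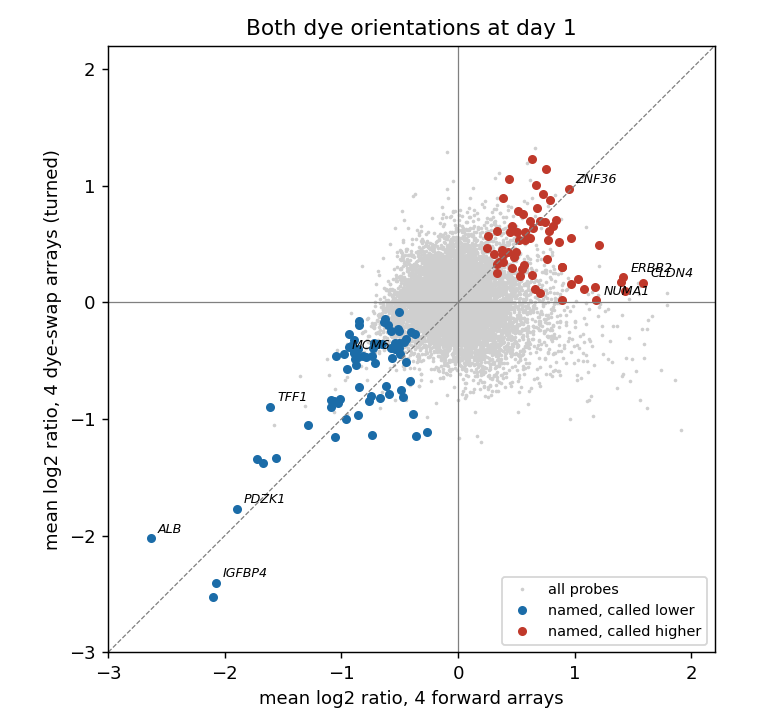
Mean day 1 log2 ratio over the pool on the 4 forward arrays (x axis) and the 4 dye-swap arrays turned to the same direction (y axis). Grey points are the 9912 probes, blue and red points are named probes called lower (74) and higher (63), and the dashed line marks equal values. PDZK1 and IGFBP4 lie near the line, while CLDN4, ERBB2 and NUMA1 lie far to its right, with forward means of 1.58, 1.41 and 1.18 against dye-swap means of 0.17, 0.22 and 0.02.

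Gene names exist for 333 probes of 253 genes, through Additional File 1. The study chose these probes on the same arrays as changed on at least 1 day and clustered them into 6 sets by their course over time, so their counts are a description and not independent evidence. At day 1, 74 named probes were lower and 63 higher, that is 56 and 49 genes by the brightest probe, and 148 genes were not called. The median over the named probes was 0.00 and over all probes -0.01. All 56 lower genes were in sets 1, 2 and 5, and 47 of the 49 higher ones were in set 6, a continuous or late set in the study's terms.

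All 25 probes of set 2 were lower, with a median log2 ratio of -0.74 and tumor medians of -0.86, -0.73, -0.73 and -0.81. The 4 medians of this set lay close together. Set 1, in which mitotic genes are frequent, had 25 of 40 probes lower and none higher, and its tumor medians were -0.54, -0.40, -0.35 and -0.28. Set 5, a continuous or late set in the study's terms, had 24 of 60 probes lower, with a median of -0.45. Set 6, its rising counterpart, had 61 of 159 probes higher and none lower, with a median of 0.36. Sets 3 and 4, which the study calls variable, had 1 called probe each. In set 3 that was BTG2 among 24 probes, and in set 4 it was GPI among 25. Without any 1 of the tumors, set 2 kept 21 to 24 lower probes, set 1 had 7 to 23, set 5 had 13 to 19 and set 6 had 15 to 38 higher probes, the lowest values being those without tumor 1 (sets 1, 2 and 5) or tumor 2 (sets 5 and 6). On dye-swap arrays alone, set 1 had 2 lower probes, set 2 had 15, set 5 had 10 and set 6 had 21 higher ones. With 1 mean per mouse these counts were 1, 12, 5 and 6.

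**Figure D2:**
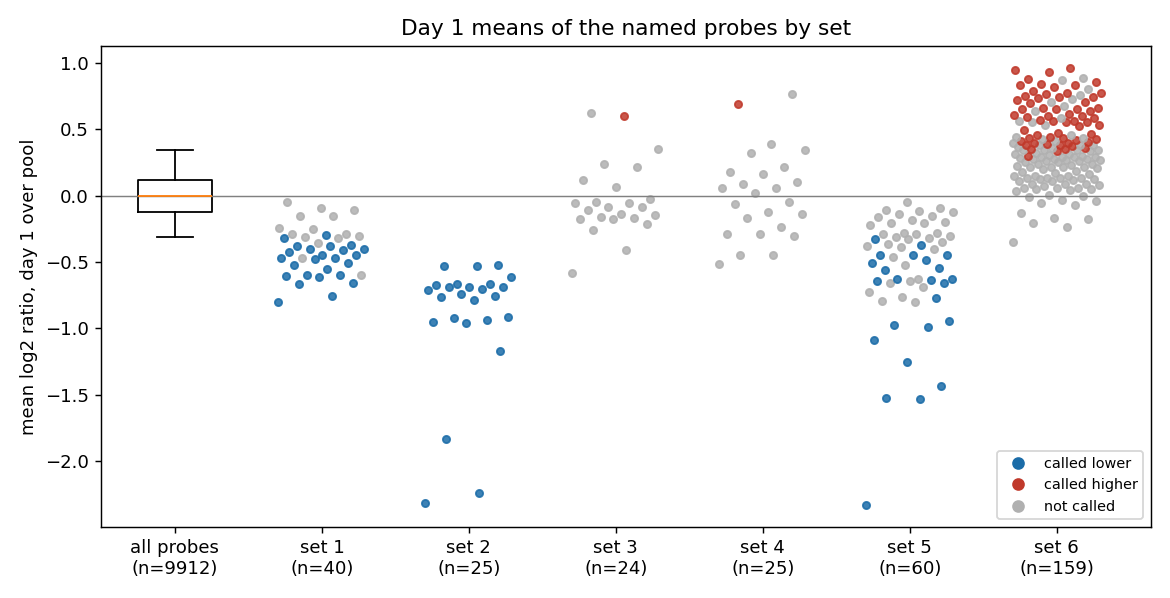
Mean day 1 log2 ratio over the pool (y axis) of the named probes in the 6 sets, with a box for all 9912 probes (quartiles, whiskers from the 5th to the 95th percentile). Blue points were called lower, red points higher and grey points not called. All 25 points of set 2 are blue, and the 61 red points of set 6 fill the upper part of that column.

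On a list of 49 genes taken as induced by estradiol, 26 had a name. Of these, 14 were lower, none was higher and 12 were not called. Their median was -0.63, against 0.02 over the 253 named genes, of which 56 were lower and 49 higher. These shares of the named genes stand beside each list below as well. All lists were chosen with earlier results of these data known. Names exist only where the study found a change on these arrays, so the counts and medians are a description. IGFBP4, which sequesters insulin-like growth factors outside the cell, read -2.33, -2.31, -2.21 and -2.11 in tumors 1 to 4. All 4 tumors lay within a narrow band, 4.73-fold below the pool (mean -2.24, SD 0.10, n = 4, adjusted p = 0.00135), and the second IGFBP4 probe had a mean of -2.32. PDZK1, a PDZ scaffold of membrane transporters and a classical receptor target, read -1.37, -1.81, -2.31 and -1.84, with a mean of -1.83 (SD 0.38, adjusted p = 0.000298). Its partner SLC9A3R1, now NHERF1, another PDZ scaffold, read -1.05, -0.97, -0.73 and -1.002. That is a 1.92-fold fall (SD 0.14, adjusted p = 0.000154), and no tumor reached the pool's level.

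The secreted trefoil peptides TFF1 and TFF3, which protect mucosal surfaces and mark estrogen receptor activity, were both lower. TFF1 read -0.96, -1.23, -1.47 and -1.35, with a mean of -1.25 (SD 0.22, adjusted p = 0.00155), and its second probe had a mean of -1.43. TFF3 read -0.84, -0.68, -0.75 and -0.83, a smaller and more even fall (mean -0.77, SD 0.08, adjusted p = 0.00692), whose call was lost without tumor 1. SERPINA6, the corticosteroid-binding globulin, read -1.39, -1.62, -1.38 and -1.71, a 2.87-fold fall (SD 0.17, adjusted p = 0.00507). Further members of the serpin family were below 0 in every tumor without being called. SERPINA1, the antitrypsin gene, read -0.84, -0.57, -0.41 and -0.94 (adjusted p = 0.0945), and SERPINA4 read -0.81, -0.47, -0.40 and -0.42 (adjusted p = 0.115).

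Transcription factors and co-regulators were among the falls. CITED1, a coactivator of the estrogen receptor, read -0.89, -1.01, -1.18 and -1.60, with a mean of -1.17 (SD 0.31, adjusted p = 0.00177) from a dim probe at 3.52 times background. RUNX1, a DNA-binding factor that works beside the receptor in luminal cells, read -0.56, -0.79, -0.71 and -0.68 (mean -0.69, SD 0.09, adjusted p = 0.000177). EGR3, a zinc-finger factor induced early by estradiol, was uneven, at -0.14, -0.82, -0.55 and -1.03 (mean -0.64, SD 0.38, adjusted p = 0.0213), and its call was lost without tumor 2, 3 or 4. The Myb family divided by member. MYBL1 was lower (mean -0.79, SD 0.20, adjusted p = 0.000428, and named here after its value was seen), while MYB had a mean of -0.33 (SD 0.23, adjusted p = 0.156) and MYBL2 one of -0.18 (SD 0.27, adjusted p = 0.572). MYBL2 was also split between the dyes, with 0.29 on forward and -0.65 on dye-swap arrays. Some growth factor signalling genes were not called. AREG, an ERBB receptor ligand, had a mean of -0.46 (SD 0.32, adjusted p = 0.0817), IRS1 one of 0.06 with a second probe at -0.12, and IGF1R one of -0.17 (adjusted p = 0.49).

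Further falls were in enzymes, a secreted protein and a chaperone of steroid receptors. B4GALT1, a galactosyltransferase of the Golgi, read -1.12, -0.89, -0.84 and -0.80, a 1.88-fold fall (SD 0.14, adjusted p = 2.11e-05), and its 3 probes had means between -0.96 and -0.91. OLFM1, a secreted olfactomedin, read -0.92, -1.11, -0.77 and -0.97 (mean -0.94, SD 0.14, adjusted p = 0.000154), and all 5 of its probes were lower, from -0.99 to -0.64. ATP5D, now ATP5F1D, a subunit of mitochondrial ATP synthase, read -1.24, -0.70, -1.05 and -1.36 (mean -1.09, SD 0.29, adjusted p = 0.000148). FKBP5, a chaperone of steroid receptors that glucocorticoids and progestins induce, read -0.91, -1.06, -0.56 and -1.15 (mean -0.92, SD 0.26, adjusted p = 0.00171). On the list for steroid hormone metabolism and glucocorticoid response, 3 of 6 genes with a name were lower. These were FKBP5, SERPINA6 and CYP1B1, a cytochrome P450 that hydroxylates estradiol (mean -0.63, SD 0.39, adjusted p = 0.0296). SERPINA6 and CYP1B1 are also on the estrogen-induced list. The call of CYP1B1 was lost without any 1 of the tumors. The glucocorticoid receptor gene NR3C1 had a mean of 0.13 (adjusted p = 0.564).

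**Figure D3:**
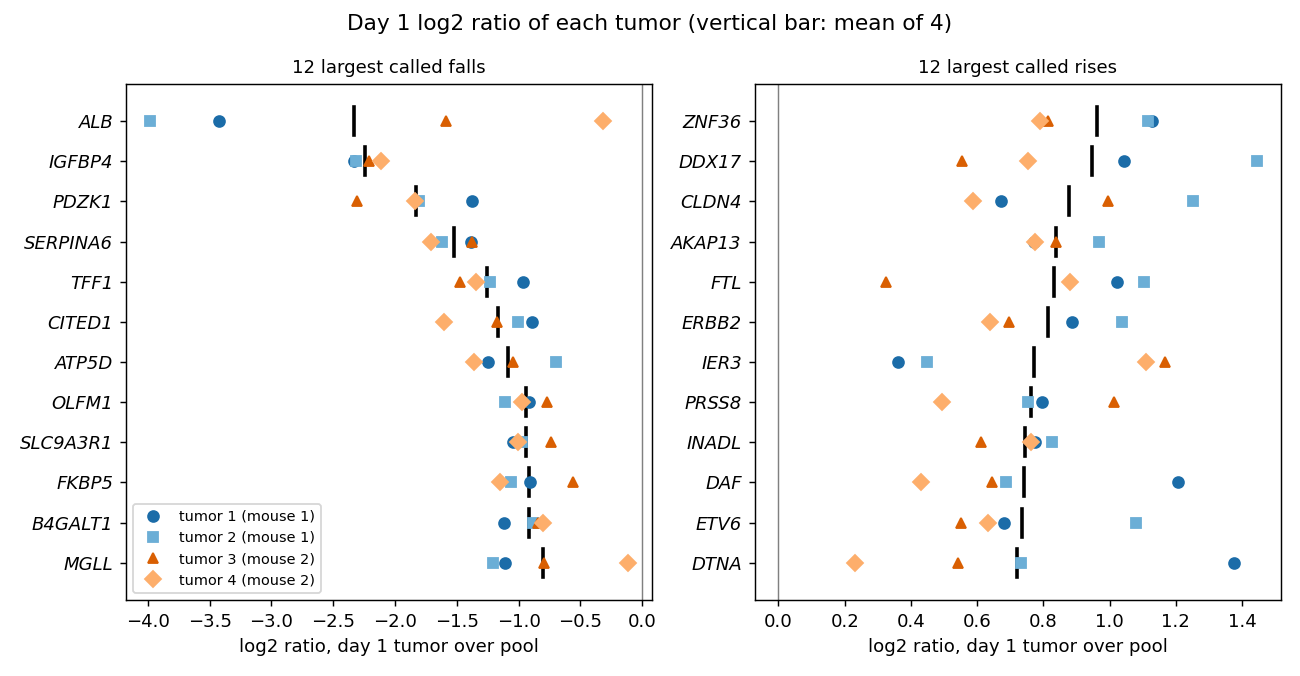
Day 1 log2 ratio over the pool (x axis) of the 12 called genes with the largest falls (left) and the 12 with the largest rises (right), 1 marker per tumor and a bar at the mean of 4. Blue markers are the tumors of the first mouse and orange markers those of the second. IGFBP4 is the tightest of the deep falls, ALB spreads from -3.98 to -0.32, and in IER3 the orange markers lie above the blue ones.

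On a list of 56 genes for DNA replication and nucleotide supply, 12 had a name, 7 of which were lower, 1 higher and 4 not called, with a median of -0.47. MCM2 and MCM6 encode subunits of the replicative helicase that is loaded at origins in G1. MCM2 read -0.63, -0.52, -0.62 and -0.70 (mean -0.62, SD 0.07, adjusted p = 0.000887). MCM6 read -0.37, -0.72, -0.87 and -0.88 (mean -0.71, SD 0.24, adjusted p = 0.00026). Its forward mean was -0.98 and its dye-swap mean -0.44, and the call was lost on dye-swap arrays alone. The deoxynucleotide enzyme RRM2, the small subunit of ribonucleotide reductase, read -0.60, -0.49, -0.39 and -0.62 (mean -0.52, SD 0.11, adjusted p = 0.000596). CTPS, now CTPS1, which makes CTP, read -0.84, -0.60, -0.50 and -0.73 (mean -0.67, SD 0.15, adjusted p = 0.000552). The 1 higher member is the probe named UNG2 (mean 0.35, SD 0.22, adjusted p = 0.0291), a symbol that has been used for more than 1 gene, and its call was lost without any 1 tumor.

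Of 18 mitotic genes with a name on a list of 58, 10 were lower, none was higher and 8 were not called, with a median of -0.36 and tumor medians of -0.51, -0.37, -0.35 and -0.27. CDKN3, a phosphatase of cyclin-dependent kinases, read -0.79, -0.67, -0.68 and -0.31 (mean -0.62, SD 0.21, adjusted p = 0.00177). CKS2, a small subunit of those kinases, read -0.87, -0.69, -0.59 and -0.27 (mean -0.60, SD 0.25, adjusted p = 0.00506). Its second probe had a mean of -0.60 but an adjusted p of 0.051, and the call of the first was lost without tumor 1. In both genes tumor 4 was nearest to the pool.

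The kinase AURKA, which matures centrosomes, read -0.65, -0.34, -0.34 and -0.39 (mean -0.43, SD 0.15, adjusted p = 0.00382), and SFI1, a centrosome protein, had a mean of -0.60 (SD 0.06, adjusted p = 0.00171). The spindle genes BUB1B (mean -0.51, adjusted p = 0.00997), TACC3 (-0.48, 0.00624), NEK2 (-0.37, 0.00969), STMN1 (-0.38, 0.0412) and ZWINT (-0.32, 0.0441) were lower too, each with a call that was lost without at least 1 tumor. On dye-swap arrays alone the calls of CDKN3, CKS2, AURKA, SFI1, BUB1B, NEK2, STMN1 and ZWINT were lost, while TACC3 kept its call. CCNA2, which encodes cyclin A2, had a mean of -0.32 without being called (adjusted p = 0.0703), and so had DLG7, now DLGAP5 (-0.31, 0.0561). MKI67, the gene of the Ki-67 proliferation antigen, was not called, at -0.27, -0.04, -0.10 and -0.15 (mean -0.14, SD 0.10, adjusted p = 0.61). Its second probe had a mean of -0.25 and was not called either. CENPF (-0.11), CDC25B (-0.15) and PRC1 (-0.25) were not called by their brightest probes, although the second PRC1 probe was (mean -0.45, adjusted p = 0.0292). UBE2C, a ubiquitin-conjugating enzyme of the anaphase complex, had 3 probes with means of -0.31, -0.29 and -0.29, and the call went to the one with the smallest spread (adjusted p = 0.0491). The brightest UBE2C probe read -0.60 on forward and -0.02 on dye-swap arrays, and CCNA2 -0.59 and -0.05. PRC1 was more even, at -0.22 and -0.27.

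Promoter letters of these cell-cycle genes are shown because E2F sites and the cell-cycle homology region (CHR) are the elements through which such genes are held down outside S phase and mitosis. RefSeq promoter windows (GRCh38.p14) were found for 187 of the 253 named genes, and the 250 bases before the start were read on both strands. An E2F motif (TTT, then C or G, then GCGC) was in 2 of 18 windows of the replication genes (11.1%) and in 0.968% of 35116 windows of all genes. The CHR motif TTTGAA was in 9 of 22 windows of the mitosis genes (40.9%) and in 13.3% of all windows. The E2F and CHR searches were added after the day 1 values were seen. A match describes letters and not a bound site. MCM6 holds overlapping E2F motifs at 2 places, in capitals, and CDKN3 and CKS2 hold a CHR each, in capitals and read on the opposite strand.
MCM6 (chr2:135876444-135876693, minus strand): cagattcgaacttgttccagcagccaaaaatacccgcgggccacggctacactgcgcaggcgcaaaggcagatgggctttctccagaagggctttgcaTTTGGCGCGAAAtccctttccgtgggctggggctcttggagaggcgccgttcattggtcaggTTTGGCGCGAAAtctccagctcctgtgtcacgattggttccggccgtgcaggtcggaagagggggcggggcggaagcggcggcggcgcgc
CDKN3 (chr14:54396757-54397006, plus strand): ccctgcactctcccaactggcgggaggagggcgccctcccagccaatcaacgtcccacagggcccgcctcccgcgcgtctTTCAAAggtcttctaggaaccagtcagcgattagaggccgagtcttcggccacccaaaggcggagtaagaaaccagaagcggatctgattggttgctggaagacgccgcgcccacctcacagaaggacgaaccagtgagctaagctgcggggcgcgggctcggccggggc
CKS2 (chr9:89310945-89311194, plus strand): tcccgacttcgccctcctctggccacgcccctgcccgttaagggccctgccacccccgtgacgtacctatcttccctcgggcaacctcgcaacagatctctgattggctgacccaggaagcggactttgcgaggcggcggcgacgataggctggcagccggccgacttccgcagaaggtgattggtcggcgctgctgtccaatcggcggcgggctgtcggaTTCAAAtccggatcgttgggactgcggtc
The full palindromic estrogen response element (GGTCA, 3 bases of any kind, TGACC) was in 0 of the 316 windows of named genes and in 14 of all windows (0.0399%), and no window was listed for TFF1.

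Lipid genes divided between falls and no call. Of 9 with a name on the list for cholesterol and fatty acid synthesis, 5 were lower and none higher. Of all 253 named genes, 56 were lower and 49 higher. The list also holds MGLL and FABP5, which are not enzymes of synthesis. MGLL, which releases fatty acids from monoglycerides, read -1.11, -1.21, -0.79 and -0.11 (mean -0.80, SD 0.49, adjusted p = 0.0219). FABP5, a fatty acid carrier, read -0.93, -1.12, -0.35 and -0.61 (mean -0.75, SD 0.34, adjusted p = 0.0204), with both tumors of the first mouse below both of the second. The call of MGLL was lost without tumor 1, 2 or 3 and that of FABP5 without tumor 1 or 2. ELOVL5, an elongase of polyunsaturated fatty acids, was even across tumors (mean -0.53, SD 0.04, adjusted p = 0.0023), and EBP, a sterol isomerase, had a mean of -0.40 (SD 0.10, adjusted p = 0.00661). Among membrane transporters the zinc exporter SLC30A1 (mean -0.66, SD 0.09, adjusted p = 0.00507) and the glutamate carrier SLC1A1 (-0.63, SD 0.27, adjusted p = 0.00798) were lower, while the phospholipid flippase ATP8B1 was higher (0.56, SD 0.18, adjusted p = 0.0164). The call of EBP was lost without tumor 1, that of SLC1A1 without tumor 2 or 3, and that of ATP8B1 without tumor 1 or 2. ATP8B1 had a forward mean of 0.97 and a dye-swap mean of 0.16. MGLL, FABP5, ELOVL5, EBP, SLC30A1, SLC1A1 and ATP8B1 each lost their call on dye-swap arrays alone.

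A list of 26 genes taken as held down by estradiol had 17 with a name. Of these, 7 were higher, IER3 included, none was lower and 10 were not called, with a median of 0.43. CLDN4, a tight junction claudin, read 0.67, 1.25, 1.00 and 0.59, a 1.84-fold rise (SD 0.31, adjusted p = 0.000681), and all 3 of its probes were higher, from 0.77 to 0.88. ERBB2, the receptor tyrosine kinase HER2, read 0.89, 1.04, 0.70 and 0.64, a 1.76-fold rise (SD 0.18, adjusted p = 0.00171). Both rises stood mainly on the forward arrays, and neither call held on dye-swap arrays alone (adjusted p = 0.616 for CLDN4 and 0.505 for ERBB2). GRB7, the ERBB2 adaptor and its chromosomal neighbour, had a mean of 0.43 (SD 0.24, adjusted p = 0.0232), and ERBB3, the partner receptor of ERBB2, one of 0.28 (adjusted p = 0.139). The call of GRB7 was lost without tumor 1, 2 or 3.

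IER3, a stress-induced survival gene, read 0.36, 0.45, 1.17 and 1.11, a 1.71-fold rise (SD 0.43, adjusted p = 0.019). Both tumors of the second mouse lay above both of the first, in the second IER3 probe too, and the call was lost without tumor 2, 3 or 4. The place of this gene on the list is doubtful. In cultured cells the study found it raised by estradiol and raised further by tamoxifen. TRIB2, a pseudokinase, read 1.01, 0.73, 0.68 and 0.19 (mean 0.65, adjusted p = 0.0194). TXNIP, the thioredoxin-binding protein that restrains glucose uptake, had a mean of 0.44 (SD 0.17, adjusted p = 0.029), and 3 of its 4 probes were higher. The calls of TRIB2 and TXNIP were lost without tumor 1, 2 or 3. CLU, the chaperone clusterin, had a mean of 0.34 (SD 0.07, adjusted p = 0.0309), lost without any 1 tumor. Other listed genes were not called. IGFBP5 read 1.22, 0.82, 0.25 and -0.07 (adjusted p = 0.381), with the mice apart in all 3 probes, and PSCA read -0.44, -0.03, 0.02 and -0.23 (adjusted p = 0.502).

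Epithelial surface and junction genes were higher with 1 exception among those called. Of 9 luminal epithelium genes with a name, 5 were higher and 1 lower, with a median of 0.53. PRSS8, a membrane-anchored serine protease, read 0.80, 0.75, 1.01 and 0.49 (mean 0.76, SD 0.21, adjusted p = 0.000552), and SPINT1, an inhibitor of such proteases, read 0.53, 0.66, 0.80 and 0.34 (mean 0.58, SD 0.19, adjusted p = 0.000679). On dye-swap arrays alone the call of PRSS8 was lost, while SPINT1 kept its call. INADL, now PATJ, a polarity scaffold of tight junctions, read 0.78, 0.83, 0.61 and 0.76 (mean 0.74, SD 0.09, adjusted p = 0.00953), but its second probe had a mean of 0.32 and was not called (adjusted p = 0.303), and the call of the first was lost without tumor 1 or 2. The exception was MUC1, the transmembrane mucin, at -1.05, -0.62, -0.28 and -0.81 (mean -0.69, SD 0.32, adjusted p = 0.0119), a call lost without tumor 1 or tumor 2.

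The other large rises came from mixed functions. ZNF36, now ZKSCAN1, a zinc-finger factor, rose most, at 1.13, 1.12, 0.82 and 0.79 (mean 0.96, SD 0.18, adjusted p = 0.00313), with forward and dye-swap means of 0.95 and 0.98. The RNA helicase DDX17 had a mean of 0.95 (SD 0.39, adjusted p = 0.0499), the guanine exchange factor AKAP13 one of 0.84 (adjusted p = 0.0308) and the iron store gene FTL one of 0.83 (adjusted p = 0.0252). These 3 calls were each lost without at least 3 of the 4 tumors, left out in turn. DAF, now CD55, which shields cells from complement, had a mean of 0.74 (adjusted p = 0.01), ETV6, an ETS repressor, one of 0.74 (adjusted p = 0.0122) and DTNA, a dystrophin-associated protein, one of 0.72 (adjusted p = 0.00507). The calls of DAF and ETV6 were lost without tumor 1 or 2. MB, the myoglobin gene, read 0.53, 0.62, 0.78 and 0.68 (mean 0.65, SD 0.10, adjusted p = 0.000552). BTG2, an antiproliferative p53 target, read 0.35, 0.55, 0.62 and 0.87 (mean 0.60, SD 0.22, adjusted p = 0.0413), with a forward mean of 1.08 and a dye-swap mean of 0.12, and its call was lost without any 1 tumor.

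Of 12 genes for nuclear RNA processing and scaffold, 4 were higher and 1 lower. Besides DDX17, the splicing cofactor SRRM2 (mean 0.62, adjusted p = 0.00647) and the spindle and matrix protein NUMA1 (0.60, adjusted p = 0.0281) were higher. For both SRRM2 and NUMA1 the forward mean was larger than the dye-swap mean, at 1.03 and 1.18 against 0.20 and 0.02. The call of SRRM2 was lost without tumor 1 or 2 and that of NUMA1 without tumor 1, 2 or 3. The lower member was THOC4, now ALYREF, an mRNA export adaptor, at -0.94, -0.44, -0.75 and -0.56 (mean -0.67, SD 0.22, adjusted p = 0.000682). Its forward mean was -0.38 and its dye-swap mean -0.96, and the call was lost on forward arrays alone (adjusted p = 0.0899). Of 7 immediate early genes, 3 were higher (IER3, PHLDA1 and BTG2) and 1 lower (EGR3). Of 10 solute carriers and pumps with a name, 4 were lower and 2 higher. Of 4 genes for apoptosis and p53 targets, 2 were higher (CLU and TXNIP) and BIK and PERP were not called. Of 7 insulin and IGF signalling genes, IGFBP4 was lower and the adaptor SORBS3 higher. These counts stand beside 56 lower and 49 higher genes among all 253 with a name, and nothing is read from lists near those shares.

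The calls named above differed in how well they held. Of 65 called genes chosen by the naming rule, 22 of 37 lower and 7 of 28 higher ones kept their call when any 1 tumor was left out. PDZK1, ATP5D, OLFM1, SLC9A3R1, B4GALT1, CTPS, RRM2 and RUNX1 among the falls, and ZNF36 and SPINT1 among the rises, kept it under the 20 alternatives run per gene, 10 genes in all. These leave out the study's call rule, whose limit of 1.5-fold RRM2 (1.44-fold) and SPINT1 (1.498-fold) did not reach. With 1 mean per mouse, 50 of the 65 calls were lost, and on dye-swap arrays alone 39 were lost. IGFBP4 (adjusted p = 0.132), TFF1 (0.131), SERPINA6 (0.195) and MCM2 (0.0613) were among those lost with 1 mean per mouse. Probes without a name also moved. The deepest falls among them were probe 308636_A (-1.72, -1.36, -0.57 and -0.74, adjusted p = 0.0167) and probe 416833_A (-1.004, -0.99, -0.90 and -0.92, adjusted p = 8.27e-06), and the largest rises were probe 252491_A (1.47, 1.24, 0.32 and 0.71, adjusted p = 0.0412) and probe stSG89262 (1.32, 1.01, 0.86 and 0.38, adjusted p = 0.0282). In all, 280 of the lower and 232 of the higher probes had no name here.

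The 4 tumors were not alike, and the differences ran through particular genes. Across all probes the tumor ratios correlated with r of 0.27 to 0.50, and the median SD of a probe over the tumors was 0.18. The mean r was 0.42 between tumors of the same mouse (2 pairs) and 0.39 between tumors of different mice (4 pairs). A difference between the mice was not tested for single genes. ALB, the gene of serum albumin, had the largest SD of the named genes (1.69) and read -3.43, -3.98, -1.58 and -0.32. Both tumors of the first mouse were far below the pool and tumor 4 was close to it (mean -2.33, adjusted p = 0.0215, a call lost without tumor 1, 2 or 3). ADM, which encodes the hypoxia-induced vasodilator adrenomedullin, ran from 1.47 in tumor 1 to -1.83 in tumor 4, with 0.75 and 0.04 in tumors 2 and 3 (SD 1.42, adjusted p = 0.915). NDRG1, another hypoxia-induced gene, read 1.66, 1.23, 0.62 and -0.46, FOS, the AP-1 subunit, read 1.17, 0.45, 0.50 and -0.83, and RAB31, a vesicle GTPase, read 0.38, -0.20, -0.37 and -1.87. In ADM, NDRG1, FOS and RAB31 tumor 1 was highest and tumor 4 lowest, and none was called.

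The hypoxia and glycolysis list holds ADM and NDRG1 and overlaps set 4, to which 6 of its 9 named genes belong, so its order is a description of those genes. Of 9 hypoxia and glycolysis genes with a name, 7 had their lowest value in tumor 4 and 8 their highest in tumor 1. The shares were 36.4% and 30.4% over the named genes, and 26.3% and 27.9% over all probes. The list's tumor medians were 0.76, 0.44, 0.17 and -0.54. GPI, a glycolytic enzyme, was called higher (mean 0.69, adjusted p = 0.0196) although it read 1.17, 0.90, 0.84 and -0.14, and the call was lost without tumor 1, 2 or 3. STC1, a secreted glycoprotein, read 1.38, 0.89, 0.44 and 0.49 and was not called (adjusted p = 0.0513). EGLN2, an oxygen-sensing prolyl hydroxylase that is itself estrogen-responsive, was the 1 lower gene of the list, at -0.80, -0.83, -0.71 and -0.67 (mean -0.75, adjusted p = 0.00026). Its forward mean was -0.36 and its dye-swap mean -1.14, and the call was lost on forward arrays alone (adjusted p = 0.0716). In set 4, which the study clustered on these same tumors, 16 of 17 genes were lowest in tumor 4. Mitotic genes ran differently, with 11 of 18 lowest in tumor 1, beside 69 of 253 named genes and 2833 of 9912 probes. Most of these mitotic genes belong to set 1, in which 14 of 29 genes were lowest in tumor 1. The study clustered set 1 on these same tumors too, so this order is likewise a description.

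**Figure D4:**
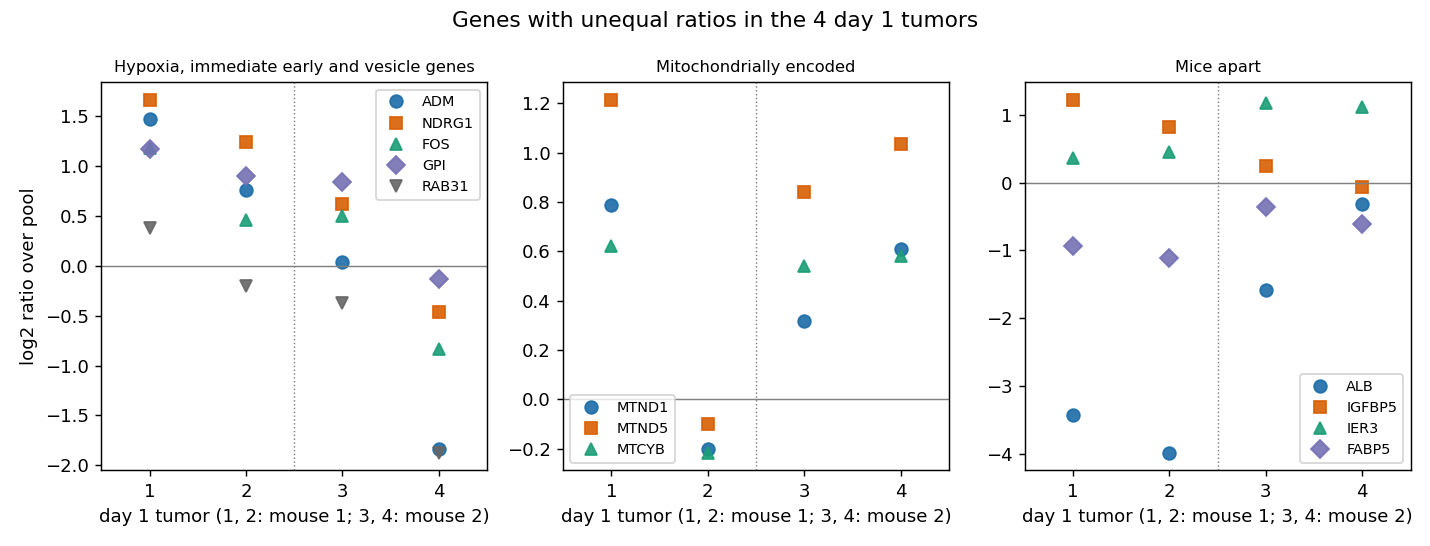
Log2 ratio over the pool (y axis) in each of the 4 day 1 tumors (x axis, a dotted line between the mice) for 3 groups of genes. Left, ADM, NDRG1, FOS, GPI and RAB31 are lowest in tumor 4. Middle, the mitochondrially encoded MTND1, MTND5 and MTCYB are near -0.2 to -0.1 in tumor 2 and above 0.3 in the others. Right, ALB, IGFBP5, IER3 and FABP5 are shown because both tumors of 1 mouse lie below both of the other. Whether the mice differ was not tested.

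Transcripts of the mitochondrial genome set tumor 2 apart. MTND5, a subunit of complex I, read 1.21, -0.10, 0.84 and 1.03 (mean 0.75, adjusted p = 0.0241, a call lost without tumor 1, 3 or 4). MTCYB, cytochrome b, read 0.62, -0.22, 0.54 and 0.58, and MTND1, another subunit of complex I, read 0.79, -0.20, 0.32 and 0.61, without a call (adjusted p = 0.128 and 0.22). Tumor 2 was below the pool in all of these and the other tumors above it. Whether RNA quality or cell content had a part in these differences was not tested.

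Markers of other cells could be read only where they had a name. None of the listed markers of endothelium, macrophages and leukocytes, or adipocytes did. Of 27 fibroblast and matrix markers, 4 had a name and none was called. IGFBP7 read -1.25, -0.39, -0.44 and 0.66, and FN1 and LGALS1 were likewise lowest in tumor 1 and highest in tumor 4. MGP ran the opposite way, at -0.03, -0.26, -0.52 and -0.78 (adjusted p = 0.0643). The red cell markers with a name were HBG1 and a probe shared by HBZ, HBA1, HBA2 and HBQ1, with tumor medians of -1.002, -1.16, -0.55 and -0.48, neither of them called (adjusted p = 0.0951 and 0.0806). Their part in the tumor differences above was not tested. The liver-type secreted proteins ALB, SERPINA6, SERPINA1, SERPINA4 and MAT1A were 5 of 22 listed, 2 of them lower. Of the skeletal muscle markers only MB had a name, and it was higher. Of the motile cilia markers, UNG2 was higher and CAPS and FOXJ1 were not called.

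Day 1 was then set against the later days, in which the pool cancels. The pool came from the first days of the study, and no E2-only tumor of day 7 or day 14 is on the arrays. Time on tamoxifen and tumor age therefore cannot be told apart in these differences. These contrasts share the day 1 tumors. No probe of 9912 was called between day 1 and day 2 (0%, limma, with 751 at an unadjusted p under 0.05), day 4 (0%, with 950) or day 7 (0%, with 544). Day 2 and day 14 have 2 tumors each, and a difference that was not called is not thereby shown to be absent. Of the day 4 tumors, 1 was read from its forward array alone. The nearest to a call was RRM2 against day 4, with -0.52 at day 1 and 0.13 at day 4 (difference -0.65, adjusted p = 0.0591). Against day 2 the nearest named gene was the kinase NEK2, at -0.37 against -1.11 (adjusted p = 0.274). Against day 7 the named genes with the smallest adjusted p were PDZK1 (-1.83 against -0.80), SLC9A3R1 (-0.94 against -0.34) and EGLN2 (-0.75 against -0.27), each at an adjusted p of 0.833.

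Day 14 differed in 29 probes, of which 17 (0.172%) were lower at day 1 and 12 (0.121%) higher, and 16 had a name. PSCA, a surface antigen, was at -0.17 (SD 0.21, n = 4) at day 1 and at 3.40 at day 14 (difference -3.57, adjusted p = 1.11e-07). FOXJ1, the master factor of motile cilia, was at -0.13 and 2.38 (adjusted p = 0.000736). CAPS, a calcium-binding protein of ciliated cells, was at 0.19 and 1.58, and UNG2 at 0.35 and 1.57. MUC1 changed sides, from -0.69 at day 1 to 1.02 at day 14 (adjusted p = 0.00469). The apoptosis gene PERP went from -0.04 to 0.86 (adjusted p = 0.0148). GFRA1, a neurotrophic factor co-receptor named after its value was seen, went from -0.39 to -2.54 (adjusted p = 0.0102).

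**Figure D5:**
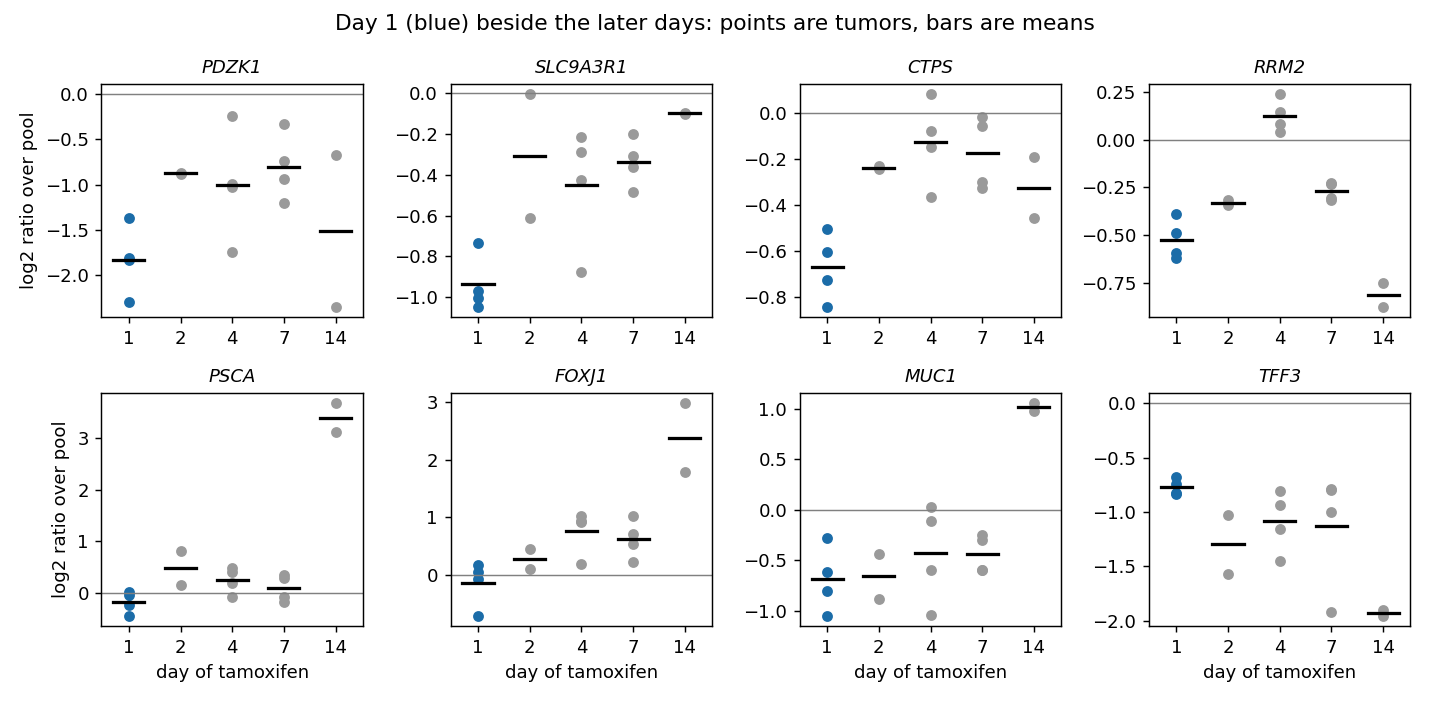
Log2 ratio over the pool (y axis, its range set per gene) of 8 genes by day of tamoxifen (x axis), with points for tumors (day 1 in blue) and bars for means. PDZK1, SLC9A3R1 and CTPS have their lowest mean at day 1, RRM2 is lower at day 1 than at day 4, and PSCA, FOXJ1 and MUC1 have their highest mean at day 14. TFF3 is at -0.77 at day 1 and at -1.93 at day 14.

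Among the deepest falls of day 1, several were not called against day 14. IGFBP4 was at -2.24 and -2.48, PDZK1 at -1.83 and -1.51, and TFF1 at -1.25 and -2.08 on these days, with adjusted p of 0.93, 0.85 and 0.36 for the differences. TFF3 came closer, at -0.77 and -1.93 (adjusted p = 0.0662), and SLC9A3R1 ran the other way, at -0.94 and -0.10 (adjusted p = 0.0676). By group, the estrogen-induced list had a median of -0.63 at day 1 and -1.10 at day 14, the mitosis list -0.36 and -0.67, the estrogen-repressed list 0.43 and 0.97, and the nuclear RNA processing list 0.48 and 0.16. Set 2 had medians of -0.74, -0.65, -0.45, -0.45 and -0.52 in the order of the 5 days.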

How the data were processed

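The 2-colour cDNA arrays compared each tumor with the pool of E2-only controls. The authors deposited scanner files with spot intensity and background in 2 channels, and a value table of log2 ratios that the authors made in limma (version not given) after background correction, loess and quantile normalization. Which dye each file channel holds is not given in the sources used here. Here, intensities were corrected with normexp (offset 50), normalized by loess and quantiles, turned to tamoxifen over pool and averaged per tumor, with spots of mark 0 left out. A single limma fit (R 4.3.3, limma 3.58.1, statmod 1.5.0) covered 16 tumors on 31 arrays, with the mouse as a random block (correlation 0.02) and Benjamini-Hochberg adjustment over 9912 probes. A dye-swap array of day 4 was left out, since it opposed the forward array of another day 4 tumor (r = -0.88 after turning). The day 4 tumor whose label it carries therefore entered the fit from its forward array alone. The p-values rest on the spread between tumors within a day, estimated over all days and not from the day 1 tumors alone. Some pairs of tumors share a mouse.

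Names came from Additional File 1, whose sets were read as names and set numbers only. By current symbol 217 genes matched RefSeq and by older symbol 34, and 2 did not match. The brightest probe stood for a gene. The text names the 12 largest called falls and the 12 largest rises of 1 sign in all tumors, genes the study discusses, up to 4 genes per list by adjusted p, the 5 largest SDs, up to 3 genes per difference between days, and 4 probes without a name. Members and lists were chosen with earlier results of these data known. Alternatives changed the background correction, normalization, spot marks, dim probes, blocks, dye term or orientation, samples, weights, source of values and call rule, or left out each tumor. The code was tested on simulated data. The number of arrays limits the precision. A result for 1 gene is not reported here.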

Additional observations from a re-analysis of the deposited data

Results flagged for a closer look

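Among 106 genes looked at over the 4 day 1 tumors, 3 had 1 tumor set apart from the others, where chance marks about 1 in 20 groups. Tumor 1 had a log2 ratio of -0.65 for AURKA and of -0.50 for UBE2C, below the other tumors, and tumor 2 had -0.22 for MTCYB. The limma fit called 6 genes chosen by the naming rule as different between day 1 and day 14. Their differences, day 1 minus day 14, were -1.40 for CAPS, -2.51 for FOXJ1, -1.71 for MUC1, -0.90 for PERP, -3.57 for PSCA and -1.22 for UNG2 on the log2 scale.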

How the results depend on the processing

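The main calls were 354 lower and 295 higher probes at day 1. No background correction gave 558 and 494, 1 mean per mouse 20 and 6, a dye term 659 and 612, forward arrays alone 992 and 880, dye-swap arrays alone 108 and 103, only the days compared 699 and 743, the left-out day 4 array used as labelled 228 and 139, the authors' own values 572 and 697, array weights 778 and 743, and the study's call rule 74 and 83. Loess without quantiles gave 589 higher probes. Leaving out 1 tumor gave 82 to 304 lower and 43 to 227 higher probes. The cause of these shifts was not tested. Of the 649 main calls, 2 had the other sign on forward arrays alone and 26 on dye-swap arrays alone, and none under the other alternatives.

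Set 1 had 7 to 23 lower probes without 1 tumor, set 2 21 to 24, set 5 13 to 19, and set 6 15 to 38 higher ones. Against day 2, 1 probe was called without background correction, 4 with a dye term, 4 on forward arrays and 1 in the authors' table. Against day 4, 1 was called without background correction, 1 with plain subtraction, 1 with loess alone, 1 without dim probes and 5 with a dye term. Against day 14 (29 probes), the counts were 57 without background correction, 54 with plain subtraction, 44 without dim probes, 10 with 1 mean per mouse, 205 with a dye term, 16 on forward arrays, 127 with only the days compared, 14 with the left-out array, 60 in the authors' table, 291 with array weights, and 14 to 49 without 1 tumor.

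Replicate numbers did not pair the samples (mean r of deviations 0.01 over 24 pairs, range -0.17 to 0.18). With the number as a replicate block, 308 probes were lower and 269 higher, and 455 of the 649 calls remained.

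Genes that changed sign were not called. They were, on dye-swap arrays alone, CENPF (0.0108), PERP (0.12), LGALS1 (0.10), LAMA3 (0.0618) and CAPS (-0.0240). On forward arrays alone they were MYBL2 (0.29), CELSR1 (0.17), NR3C1 (-0.13) and FOXJ1 (0.21). PERP was at 0.0023 with the replicate block. Without 1 tumor, PERP ranged from -0.057 to 0.00045, the highest value without tumor 2. FOXJ1 ranged from -0.251 to 0.0620 and LGALS1 from -0.130 to 0.0439, both highest without tumor 1. ADM ranged from -0.322 without tumor 1 to 0.768 without tumor 4.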
